A study of Mus musculus with 21 samples.

Results

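The genes that carry glucose into the cell, break it down to lactate, divert it into the pentose phosphate pathway and respond to low oxygen were followed as 1 module across myeloid cells of mouse adipose tissue. The module holds 35 of the 54532 genes counted, taken by symbol from a list of pathway genes, with no threshold on measured values. It names 3 glucose transporters, 3 hexokinases, 9 genes of upper glycolysis, 5 of lower glycolysis, 5 of pyruvate and lactate handling, 3 and 4 of the oxidative and non-oxidative pentose phosphate branches, and 3 of the hypoxia response. Each of the 35 passed the filter on low counts in the libraries as a whole.

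The RNA came from cells that were freed from adipose tissue with collagenase and sorted by flow cytometry, and each library was sequenced as bulk RNA. All donors were male C57BL/6 mice, with no mutation or transgene named in the labels, kept for 16 weeks on a high fat diet (HFD, obese) or a normal diet (ND, lean). The 21 libraries form 7 groups of 3: HFD monocyte derived cells, HFD MHCII+CD11c+ macrophages, HFD MHCII+CD11c- macrophages, HFD MHCIIlow macrophages, ND monocyte derived cells, ND MHCII+CD11c- macrophages and ND MHCIIlow macrophages. There is no ND group of MHCII+CD11c+ macrophages here. The labels do not name the fat depot or the age of the mice, nor do they tell if replicates came from separate mice or from pools. Each p-value therefore measures only the spread between these samples, which may be technical. MHCII+CD11c+ and MHCII+CD11c- are shortened below to CD11c+ and CD11c-.

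Glucose enters cells through transporters of the Slc2a family and is trapped by hexokinases. Phosphofructokinase is the main control point of upper glycolysis, and the PFKFB enzymes set the level of its activator. Aldolase then splits the sugar, lower glycolysis yields ATP and pyruvate, and lactate dehydrogenase turns pyruvate into lactate, which leaves through Slc16a carriers. The pentose phosphate pathway branches off after hexokinase, and its oxidative arm makes NADPH while its non-oxidative arm exchanges sugars with glycolysis. The transcription factor HIF-1 activates many of these genes when oxygen is low, and macrophages activated by bacterial products are known for high glycolysis.

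Depth was 11245851 counts in the smallest library, replicate 3 of the ND monocyte derived cells, and 35568948 in the largest. Levels are given as CPM, the count of a gene relative to the library total, scaled by the TMM method of edgeR. Sums over marker lists and over receptor genes are relative to the library total without that scaling. The sort genes stood as labelled: H2-Ab1, an MHC class II chain, measured 209.6 to 444 CPM in MHCIIlow macrophages and 1226 to 4893 CPM in all other libraries, and Itgax, which encodes CD11c, measured 480.1 to 648 CPM in CD11c+ macrophages and 59.4 to 98.3 CPM in HFD CD11c- macrophages. The monocyte marker Ly6c2 was low throughout, with 2.93 to 5.40 CPM in HFD and 1.72 to 5.37 CPM in ND monocyte derived cells. In the macrophages it measured 0.409 to 5.21 CPM. Ccr2, a chemokine receptor gene of monocytes, was higher in monocyte derived cells. It measured 335 to 426 CPM in HFD and 316 to 454 CPM in ND cells, against 41.2 to 305 CPM in the macrophages. Monocyte derived cells also held the dendritic cell gene Flt3, at 66.8, 27.5 and 31.1 CPM in HFD cells and 111, 20.9 and 109 CPM in ND cells, against 0.161 to 1.22 CPM in the macrophages. Replicates of ND monocyte derived cells were the least alike, with correlations of log2 CPM between 0.904 and 0.942, against 0.972 to 0.99 elsewhere. The part of counts on protein-coding genes in ND monocyte derived replicates 1, 2 and 3 was 73.7%, 82.5% and 67.1%, against 76.9% to 79.9% in HFD monocyte derived cells. Summed fibroblast markers were highest in the replicate numbered 2 of each HFD group, at 2210 CPM in MHCIIlow, 2362 CPM in CD11c-, 1543 CPM in CD11c+ and 1707 CPM in monocyte derived cells, where the next highest HFD replicate had 1070, 1130, 980.6 and 708.8 CPM. Results that change without those 4 libraries are named below. In bulk RNA a smaller number of cells that use a gene cannot be told apart from less of its RNA in each cell.

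The windows of 250 bases before the transcription start of 5 members are shown because they hold the short core that HIF-1 binds, and because these members took different courses in the libraries. Ldha and Pdk1 were higher on HFD in both macrophage populations, Hk2 and Pfkfb3 were lower, and Bnip3 passed the test in neither. The letters searched were ACGTG and GCGTG, on both strands, and capitals mark the matches, with CACGT and CACGC as the same motifs read from the other strand. The sequences are from RefSeq on GRCm38.p6, 5′ to 3′ along the strand of the gene: Ldha at chr7:46845554-46845803 (plus strand), Pdk1 at chr2:71872974-71873223 (plus), Hk2 at chr6:82774455-82774704 (minus), Pfkfb3 at chr2:11502091-11502340 (minus) and Bnip3 at chr7:138909507-138909756 (minus).
Ldha: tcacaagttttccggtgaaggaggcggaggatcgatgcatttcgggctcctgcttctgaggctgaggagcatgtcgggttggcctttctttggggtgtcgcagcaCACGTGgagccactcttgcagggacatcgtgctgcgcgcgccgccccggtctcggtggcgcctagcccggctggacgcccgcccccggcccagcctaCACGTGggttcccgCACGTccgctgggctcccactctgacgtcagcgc
Pdk1: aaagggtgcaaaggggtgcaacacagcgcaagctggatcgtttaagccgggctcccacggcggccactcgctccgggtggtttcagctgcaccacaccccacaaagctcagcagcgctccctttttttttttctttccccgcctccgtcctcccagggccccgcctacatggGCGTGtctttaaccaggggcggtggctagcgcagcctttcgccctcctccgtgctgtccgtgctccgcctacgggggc
Hk2: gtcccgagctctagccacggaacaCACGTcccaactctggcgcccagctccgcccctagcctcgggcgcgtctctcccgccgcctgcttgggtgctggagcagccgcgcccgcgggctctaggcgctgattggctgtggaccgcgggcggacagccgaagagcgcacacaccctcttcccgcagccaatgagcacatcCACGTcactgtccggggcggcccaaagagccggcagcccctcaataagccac
Pfkfb3: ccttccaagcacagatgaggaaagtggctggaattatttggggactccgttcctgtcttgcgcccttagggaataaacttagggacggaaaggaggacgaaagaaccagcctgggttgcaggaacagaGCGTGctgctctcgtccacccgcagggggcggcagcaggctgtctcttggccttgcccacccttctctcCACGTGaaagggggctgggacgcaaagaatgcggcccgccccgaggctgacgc
Bnip3: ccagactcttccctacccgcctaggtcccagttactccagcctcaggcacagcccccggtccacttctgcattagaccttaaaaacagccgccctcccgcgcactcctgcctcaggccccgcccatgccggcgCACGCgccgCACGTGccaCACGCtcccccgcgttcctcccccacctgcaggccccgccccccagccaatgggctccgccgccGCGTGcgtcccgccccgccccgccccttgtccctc
The table gave a window for 34 of the 35 members, Slc2a3 having no entry, and some genes have several starts. Of 48 member windows 39 held a match (81.2%), against 12679 of 32851 windows of all genes (38.6%). Member windows also held more CG pairs, with a median of 14 against 6 in all windows, and among windows with at least 10 CG pairs the shares were 31 of 35 (88.6%) and 7972 of 12417 (64.2%). Counted by gene, 13 of the 14 members higher on HFD in both macrophage populations had a match, as had 3 of the 3 members lower in both and 12 of the 13 members called in neither that have a window. The shares were alike for the 3 courses. A match is a description of letters and not evidence of binding.

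**Figure D1:**
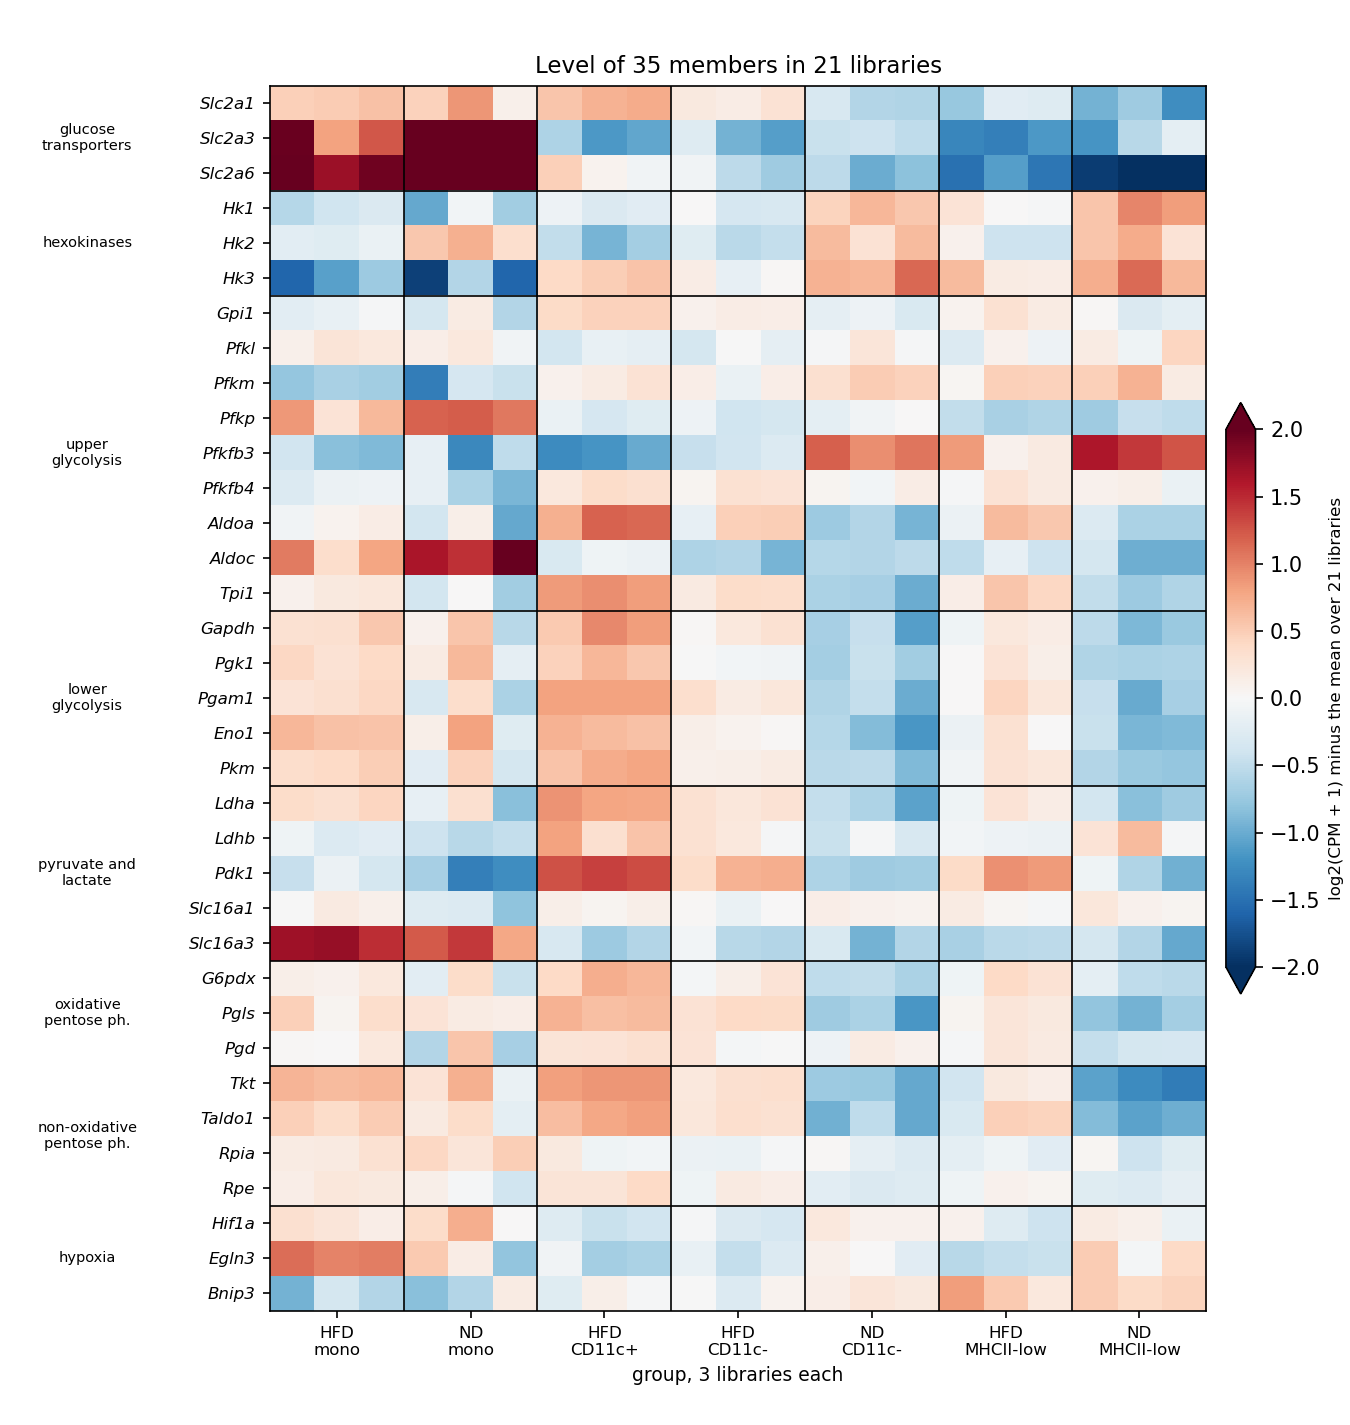
Levels of the 35 members in each of the 21 libraries, as log2(CPM + 1) minus the mean of the gene over all libraries, with genes grouped by role down the page and libraries grouped by diet and population from left to right. Colour runs from 2 below to 2 above the mean, and the 5 lower glycolysis genes are above their mean in each CD11c+ and HFD monocyte derived library and below it in each ND macrophage library.

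Glycolytic genes of CD11c- and MHCIIlow macrophages differed between the diets in both directions. The transporter gene Slc2a1, the genes from Aldoa down to Ldha, and the pentose phosphate genes Tkt, Taldo1, Pgls and G6pdx, were higher on HFD, while the hexokinase genes Hk1 and Hk2 and the regulator Pfkfb3 were lower. In MHCIIlow macrophages 15 of 35 members were higher and 4 lower at an adjusted p under 0.05, which is 54.3% of the members, against 30.7% of all 22935 genes tested. In CD11c- macrophages 15 were again higher and 4 lower (54.3%), against 32.4% of all genes tested. Well expressed genes were called more often, so the 29 members with a mean of at least 10 CPM over all libraries are best set beside the 8205 genes of that level. Of these members 51.7% were higher and 10.3% lower in MHCIIlow macrophages, against 34% and 9.46% of those genes. In CD11c- macrophages 51.7% were higher and 13.8% lower, against 32.4% and 14.9%. In both populations the share of members higher was thus above that of genes of this level, and the share lower was near it. The median log2 fold change of the 35 members was 0.33 in MHCIIlow and 0.31 in CD11c- macrophages, where that of all genes was -0.07 and -0.10.

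The same 14 members were higher on HFD in both populations: Slc2a1, Aldoa, Tpi1, Gapdh, Pgk1, Pgam1, Eno1, Pkm, Ldha, Pdk1, G6pdx, Pgls, Tkt and Taldo1. Hk1, Hk2 and Pfkfb3 were lower in both, and 14 members were called in neither. The share of all genes called alike in both populations is not given, so this overlap only describes the members. Each comparison has its own ND libraries, but HFD libraries of equal number deviated together. Some ND libraries with an equal number in the sample description did so too. The populations are therefore not independent repeats. The difference between the diet effects in CD11c- and MHCIIlow macrophages was called for 0 of 35 members and for 0% of all genes by the quasi-likelihood test of edgeR. At an unadjusted p under 0.05 the difference was higher for 1 member, Ldhb, and lower for 0, and DESeq2 called 0 members.

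**Figure D2:**
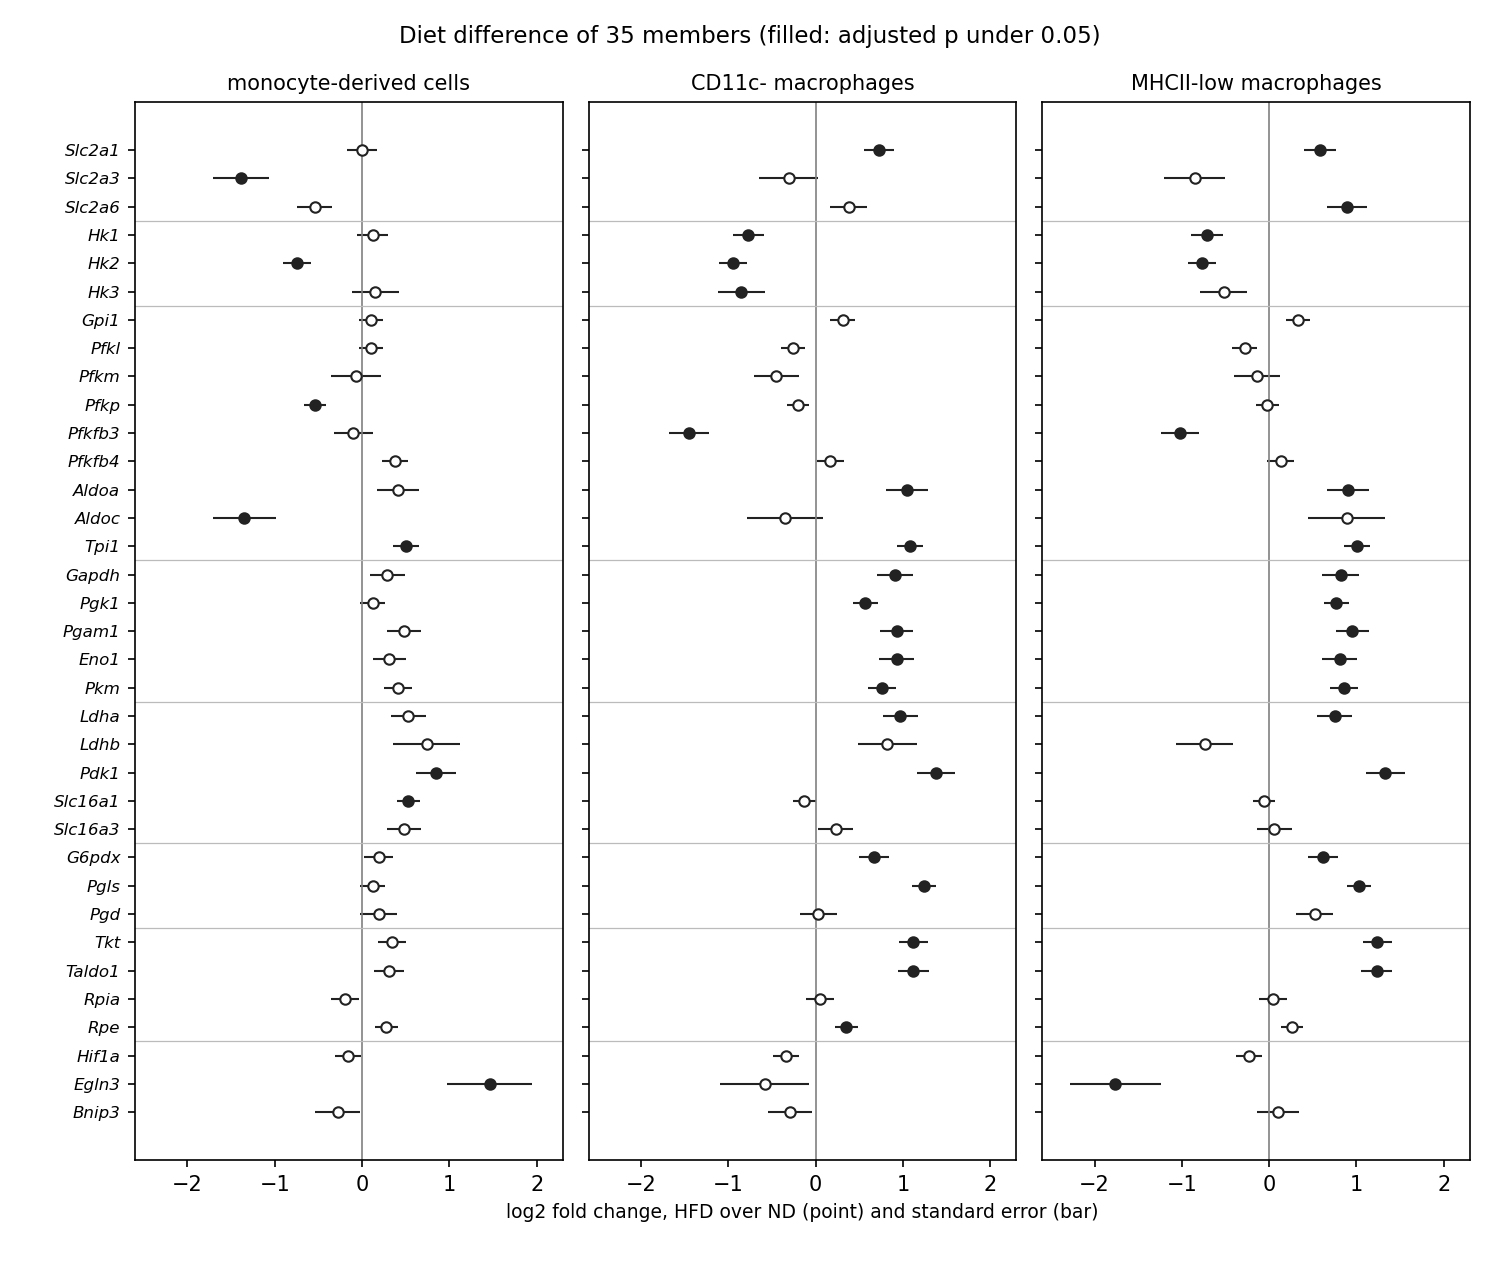
Log2 fold change of HFD over ND for the 35 members in monocyte derived cells, CD11c- macrophages and MHCIIlow macrophages, with bars for the standard error and filled points for an adjusted p under 0.05. In both macrophage panels the lower glycolysis and pentose phosphate genes lie to the right of 0 and Hk1, Hk2 and Pfkfb3 to the left, and in monocyte derived cells 8 points are filled.

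All 5 lower glycolysis genes, Gapdh, Pgk1, Pgam1, Eno1 and Pkm, rose on HFD in both macrophage populations, with a median log2 fold change of 0.82 in MHCIIlow and 0.91 in CD11c- macrophages. Gapdh, the dehydrogenase that yields the NADH of glycolysis (GRCm38 chromosome 6, 125161715 to 125166467), measured 269, 308 and 327 CPM in HFD and 167, 192 and 122 CPM in ND CD11c- macrophages (log2 fold change 0.91, SE 0.21, adjusted p = 0.00238). In MHCIIlow macrophages it measured 251, 306 and 294 CPM on HFD and 185, 141 and 158 CPM on ND (log2 fold change 0.82, SE 0.21, adjusted p = 0.00618). In each population the HFD and ND libraries did not overlap. Pkm, pyruvate kinase, whose isoforms the gene counts do not separate, had 489, 496 and 514 CPM in HFD and 316, 318 and 249 CPM in ND CD11c- macrophages (log2 fold change 0.76, SE 0.16, adjusted p = 0.00137). In MHCIIlow macrophages Pkm measured 435, 558 and 539 CPM on HFD and 303, 273 and 268 CPM on ND (log2 fold change 0.86, SE 0.16, adjusted p = 0.000679). Its HFD libraries again stood above all ND libraries. The phosphoglycerate mutase gene Pgam1 and the enolase gene Eno1 gave log2 fold changes of 0.95 ± 0.19 and 0.81 ± 0.20 in MHCIIlow macrophages and 0.93 ± 0.19 and 0.93 ± 0.20 in CD11c- macrophages (± SE), and the phosphoglycerate kinase gene Pgk1 gave 0.77 ± 0.14 and 0.57 ± 0.14. Other annotated genes with the same sequence, such as processed copies elsewhere in the genome, can take part of their reads. Of the 50-base stretches of Pgk1 53.9% also occur in other annotated genes, as do 36.2% of those of Pgam1, 26% of those of Eno1, 25.8% of those of Pkm and 24.7% of those of Gapdh, so their levels are uncertain. For Pkm the gene that shares most is Gm49759, which overlaps its exons on the same strand by 767 bases.

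Upstream of them, the aldolase and triose phosphate isomerase genes rose as well. Aldoa measured 168, 262 and 265 CPM in HFD and 113, 125 and 98 CPM in ND CD11c- macrophages (log2 fold change 1.05, SE 0.24, adjusted p = 0.00311). In MHCIIlow macrophages Aldoa measured 175, 293 and 275 CPM on HFD and 155, 122 and 121 CPM on ND (log2 fold change 0.90, SE 0.24, adjusted p = 0.00992). The groups did not overlap, but HFD replicate 1 of each population lay nearest to the ND libraries. Tpi1 measured 46.4, 53.1 and 52.1 CPM in HFD and 26, 25.5 and 19.9 CPM in ND CD11c- macrophages (log2 fold change 1.08, SE 0.15, adjusted p = 2.79e-05). In MHCIIlow macrophages Tpi1 measured 44.8, 60.4 and 54.6 CPM on HFD and 28.8, 24.1 and 26.4 CPM on ND (log2 fold change 1.01, SE 0.15, adjusted p = 6.59e-05). Its lowest HFD value in each population was over 1.5 times the highest ND value. The other upper glycolysis genes were not called, Pfkfb3 apart. Gpi1, the isomerase after hexokinase, had log2 fold changes of 0.33 in MHCIIlow and 0.31 in CD11c- macrophages, with adjusted p of 0.0742 and 0.0926. The phosphofructokinase genes Pfkl, Pfkm and Pfkp ran from -0.28 to -0.02 in MHCIIlow macrophages.

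In pyruvate and lactate handling 2 of 5 members rose in each population, Ldha and Pdk1. Ldha, the muscle form of lactate dehydrogenase (chromosome 7, 46841475 to 46855627), measured 207, 197 and 207 CPM in HFD and 121, 110.0 and 80 CPM in ND CD11c- macrophages (log2 fold change 0.97, SE 0.20, adjusted p = 0.00114). In MHCIIlow macrophages Ldha measured 159, 205 and 187 CPM on HFD and 129.8, 94 and 103 CPM on ND (log2 fold change 0.75, SE 0.20, adjusted p = 0.00842). Pdk1 encodes a kinase that switches off pyruvate dehydrogenase and so keeps pyruvate out of mitochondria (chromosome 2, 71873224 to 71903858). It measured 17, 21.6 and 22 CPM in HFD and 8.11, 7.53 and 7.64 CPM in ND CD11c- macrophages (log2 fold change 1.38, SE 0.22, adjusted p = 0.000107). In MHCIIlow macrophages Pdk1 measured 17.2, 25.2 and 24.1 CPM on HFD and 12.2, 8.20 and 6.13 CPM on ND (log2 fold change 1.33, SE 0.22, adjusted p = 0.000194). Neither gene's groups overlapped, and Pdk1 had the highest log2 fold change of the 35 members in each population. Ldhb, the heart form, stayed at 0.936 to 1.61 CPM in the HFD and 0.554 to 2.28 CPM in the ND libraries of these populations. The lactate carriers Slc16a1 and Slc16a3 had log2 fold changes between -0.13 and 0.23 in CD11c- and of -0.06 and 0.06 in MHCIIlow macrophages and were not called.

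Both arms of the pentose phosphate pathway rose in part. In the oxidative arm 2 of 3 members were called in each population, G6pdx and Pgls. G6pdx, glucose-6-phosphate dehydrogenase and the entry enzyme, measured 82.8, 93 and 103 CPM in HFD and 59.7, 60.7 and 55 CPM in ND CD11c- macrophages (log2 fold change 0.67, SE 0.17, adjusted p = 0.00472). In MHCIIlow macrophages G6pdx measured 80.9, 113 and 104 CPM on HFD and 74.6, 60 and 58.4 CPM on ND (log2 fold change 0.62, SE 0.17, adjusted p = 0.0088). Neither population's groups overlapped. Pgls, the lactonase, measured 25.6, 27.8 and 27.4 CPM in HFD and 12.3, 13.1 and 8.79 CPM in ND CD11c- macrophages (log2 fold change 1.24, SE 0.14, adjusted p = 3.5e-06). In MHCIIlow macrophages Pgls measured 21.6, 24.9 and 24.1 CPM on HFD and 11.7, 10.3 and 12.6 CPM on ND (log2 fold change 1.03, SE 0.14, adjusted p = 3.17e-05). Pgls shares exon sequence with Fam129c on its strand and G6pdx overlaps Ikbkg on the other, and no source used here gives the strand setting of the counting, so their counts may hold reads of those neighbours. Pgd, the next dehydrogenase, was not called, with log2 fold changes of 0.52 in MHCIIlow and 0.03 in CD11c- macrophages.

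In the non-oxidative arm Tkt and Taldo1 rose in both populations and the epimerase gene Rpe rose in CD11c- macrophages. Transketolase, Tkt (chromosome 14, 30548359 to 30574720), measured 194, 209 and 211 CPM in HFD and 101, 99.5 and 82.5 CPM in ND CD11c- macrophages (log2 fold change 1.12, SE 0.17, adjusted p = 5.48e-05). In MHCIIlow macrophages Tkt measured 128, 191 and 184 CPM on HFD and 79.8, 69.5 and 63.3 CPM on ND (log2 fold change 1.24, SE 0.17, adjusted p = 2.27e-05). Each HFD library stood above all ND libraries of its population. Transaldolase, Taldo1, measured 99, 107 and 105 CPM in HFD and 43, 59.2 and 41 CPM in ND CD11c- macrophages (log2 fold change 1.12, SE 0.18, adjusted p = 8.97e-05). In MHCIIlow macrophages Taldo1 measured 68.8, 118 and 116 CPM on HFD and 46, 39.8 and 42.8 CPM on ND (log2 fold change 1.23, SE 0.18, adjusted p = 4.3e-05). The same held for Taldo1. Rpe gave a log2 fold change of 0.35 (SE 0.13, adjusted p = 0.0399) in CD11c- macrophages and 0.26 (SE 0.13, adjusted p = 0.123) in MHCIIlow macrophages. The isomerase gene Rpia gave 0.04 in MHCIIlow macrophages and was not called.

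The hexokinase genes Hk1 and Hk2 went the other way. Hk2, the inducible hexokinase (chromosome 6, 82725025 to 82774454), measured 162, 132 and 138 CPM in HFD and 298, 237 and 299.6 CPM in ND CD11c- macrophages (log2 fold change -0.95, SE 0.16, adjusted p = 0.000155). In MHCIIlow macrophages Hk2 measured 204, 144 and 145 CPM on HFD and 284, 324 and 232 CPM on ND (log2 fold change -0.77, SE 0.16, adjusted p = 0.00128). Every HFD library lay below every ND library. Hk1, the hexokinase found in most tissues, measured 95, 74.3 and 75 CPM in HFD and 129, 149.9 and 137 CPM in ND CD11c- macrophages (log2 fold change -0.77, SE 0.18, adjusted p = 0.00284). In MHCIIlow macrophages Hk1 measured 115, 95 and 93.1 CPM on HFD and 138, 187 and 169 CPM on ND (log2 fold change -0.71, SE 0.18, adjusted p = 0.00624). Its groups did not overlap either. Hk3, a hexokinase of myeloid cells, fell in CD11c- macrophages, with 133, 108 and 123 CPM on HFD and 196, 192 and 267 CPM on ND (log2 fold change -0.85, SE 0.27, adjusted p = 0.0214). In MHCIIlow macrophages its values were 187, 136 and 133 CPM on HFD and 200.1, 264 and 189 CPM on ND, which the test did not call (log2 fold change -0.52, SE 0.27, adjusted p = 0.145).

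Pfkfb3 makes fructose 2,6-bisphosphate, the activator of phosphofructokinase (chromosome 2, 11471433 to 11554077). It measured 155, 164 and 177 CPM in HFD and 492, 409.5 and 450.1 CPM in ND CD11c- macrophages (log2 fold change -1.45, SE 0.23, adjusted p = 0.00011). In MHCIIlow macrophages Pfkfb3 measured 388, 228 and 241 CPM on HFD and 659, 569 and 512 CPM on ND (log2 fold change -1.02, SE 0.22, adjusted p = 0.00248). The HFD libraries were all below the ND libraries, and HFD MHCIIlow replicate 1 was the nearest to them. Its paralog Pfkfb4 was not called and measured 34.7 to 43.9 CPM in the HFD and 32.2 to 39.4 CPM in the ND libraries of these populations.

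Of the glucose transporters, Slc2a1, which encodes GLUT1, measured 39.2, 37.9 and 42 CPM in HFD and 27.2, 22.4 and 22.2 CPM in ND CD11c- macrophages (log2 fold change 0.73, SE 0.17, adjusted p = 0.00345), with no overlap. In MHCIIlow macrophages it measured 19.9, 29 and 28.6 CPM on HFD and 17.2, 20.6 and 13.9 CPM on ND, and HFD replicate 1 lay below ND replicate 2 (log2 fold change 0.58, SE 0.18, adjusted p = 0.0175). Slc2a6, a transporter that lipopolysaccharide is known to induce in macrophages, measured 7.25, 9.78 and 7.58 CPM in HFD and 5.25, 3.98 and 4.06 CPM in ND MHCIIlow macrophages (log2 fold change 0.89, SE 0.23, adjusted p = 0.00727). In CD11c- macrophages it measured 21.1, 15.1 and 13.1 CPM on HFD and 15.2, 10.7 and 12.2 CPM on ND and was not called (log2 fold change 0.38, SE 0.21, adjusted p = 0.18). Slc2a3, which encodes GLUT3, was not called in these populations, at 2.77 to 7.18 CPM on HFD and 3.29 to 7.55 CPM on ND.

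None of the 3 hypoxia genes was called higher on HFD in either macrophage population. Hif1a, the oxygen-sensitive subunit of HIF-1, measured 137, 113 and 110.1 CPM in HFD and 161, 147 and 147 CPM in ND CD11c- macrophages (log2 fold change -0.34, SE 0.15, adjusted p = 0.0928). In MHCIIlow macrophages Hif1a measured 147, 116 and 104 CPM on HFD and 155, 149 and 126 CPM on ND (log2 fold change -0.23, SE 0.15, adjusted p = 0.255). The HFD libraries lay below the ND libraries in CD11c- macrophages and overlapped them in MHCIIlow macrophages, and neither difference was called. HIF-1 is known to be set mainly by the stability of its protein, which RNA does not show. Egln3, a prolyl hydroxylase that marks HIF for breakdown and is itself a HIF target, fell in MHCIIlow macrophages with 0.38, 0.467 and 0.484 CPM on HFD and 1.87, 0.971 and 1.68 CPM on ND (log2 fold change -1.76, SE 0.52, adjusted p = 0.0151). These levels are near the bottom of the measured range, and in CD11c- macrophages Egln3 gave -0.58 (SE 0.51, adjusted p = 0.397). Bnip3, a mitophagy receptor that hypoxia is known to induce, measured 12.3, 9.75 and 7.65 CPM in HFD and 9.64, 8.79 and 9.23 CPM in ND MHCIIlow macrophages (log2 fold change 0.10, SE 0.24, adjusted p = 0.765), and its groups overlapped. In CD11c- macrophages Bnip3 gave -0.29 (SE 0.25, adjusted p = 0.372).

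Several measures moved with diet beside these genes. Summed lipid-associated macrophage genes (Trem2, Gpnmb, Cd9, Spp1, Lpl and Fabp5) were 1360 to 3468 CPM in HFD and 247.7 to 371.2 CPM in ND MHCIIlow macrophages, and 2613 to 4204 CPM in HFD and 396.5 to 497.8 CPM in ND CD11c- macrophages, and 6 of 6 were called higher in each. Summed resident macrophage genes (Lyve1, Timd4, Cd163, Folr2, Mrc1, F13a1 and Cd209f) were lower on HFD. They were 5203 to 8783 CPM in HFD and 10240 to 11590 CPM in ND MHCIIlow macrophages. In CD11c- macrophages they were 2544 to 3147 CPM on HFD and 7470 to 7973 CPM on ND. HFD MHCIIlow replicate 1 had the highest resident sum of its group, 8783 CPM, and the lowest lipid-associated sum, 1360 CPM. Summed cell cycle genes were 598.1 to 631.3 CPM in HFD and 193.8 to 243.3 CPM in ND MHCIIlow macrophages, and 582.3 to 719.9 CPM in HFD and 259.5 to 334.6 CPM in ND CD11c- macrophages, with 12 and 11 of 12 called higher. Fibroblast markers summed to 984.3 to 2210 CPM in HFD and 746.6 to 957.7 CPM in ND MHCIIlow macrophages, and 1004 to 2362 CPM in HFD and 643 to 866.4 CPM in ND CD11c- macrophages, with 3 of 10 called higher in each. The list did not move as 1: in MHCIIlow macrophages the mean of Col3a1 was 575.7 CPM on HFD and 186.7 CPM on ND, but that of Dcn was 137.6 and 223.8 CPM. At an unadjusted p under 0.05, 3 were higher and 2 lower in MHCIIlow and 4 higher and 0 lower in CD11c- macrophages. Olfactory and vomeronasal receptor genes, summed in each library, took on average 44.9 CPM in HFD and 194.3 CPM in ND MHCIIlow macrophages, and 31.8 CPM in HFD and 116.2 CPM in ND CD11c- macrophages. The part of these measures in the differences was not tested. Without the 4 HFD libraries numbered 2, a choice made after seeing the data, 8 members were higher and 2 lower in MHCIIlow macrophages, and Slc2a1, Slc2a6, Hk1, Aldoa, Gapdh, Eno1, Ldha, G6pdx and Egln3 were no longer called. Leaving out HFD MHCIIlow replicate 2 alone gave 10 higher, with Slc2a1, Slc2a6, Aldoa, Ldha and G6pdx lost, and leaving out replicate 3 alone gave 12, with Slc2a1, Aldoa and G6pdx lost. Slc2a1 was also lost without ND MHCIIlow replicate 3. In CD11c- macrophages Hk3 and Rpe were lost without HFD replicate 2, HFD replicate 3 or ND replicate 3, and Rpe also without ND replicate 1 or 2.

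**Figure D3:**
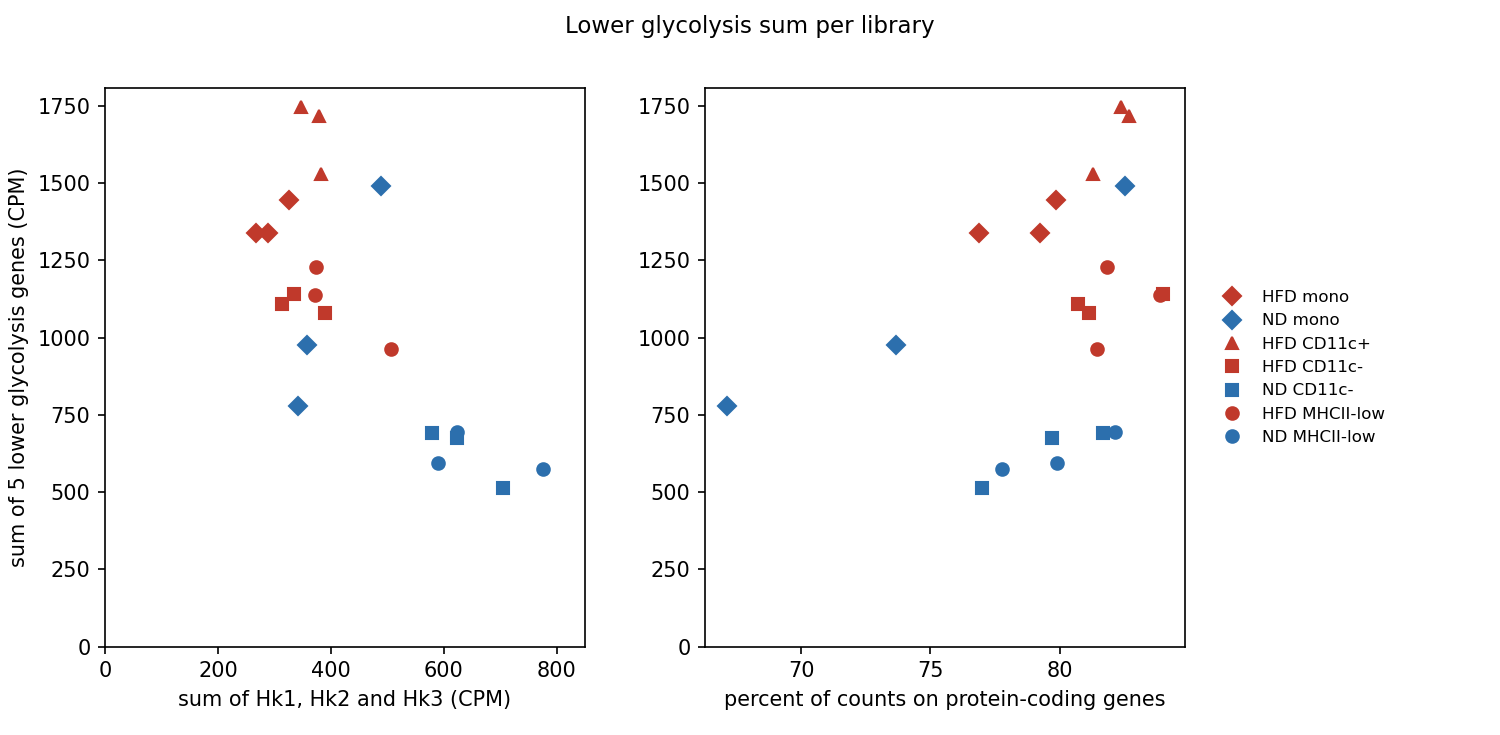
Summed CPM of the 5 lower glycolysis genes in each of the 21 libraries, plotted against the summed CPM of the 3 hexokinase genes (left) and against the percent of counts on protein-coding genes (right), with red for HFD, blue for ND and a marker for each population. The ND macrophage libraries lie at low lower glycolysis and high hexokinase sums, and the 3 ND monocyte derived libraries run from 778.1 CPM at 67.1% coding to 1491 CPM at 82.5% coding.

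The opposite moves of the lower glycolysis and hexokinase genes can be read within each library, where the scaling between libraries drops out. The ratio of the summed CPM of Gapdh, Pgk1, Pgam1, Eno1 and Pkm to that of Hk1, Hk2 and Hk3 was 3.23 ± 0.412 in HFD and 1.00 ± 0.240 in ND CD11c- macrophages (SD, n = 3 each). It was 2.75 ± 0.738 in HFD and 0.957 ± 0.196 in ND MHCIIlow macrophages, 4.51 ± 0.515 in CD11c+ macrophages, and 4.68 ± 0.28 in HFD and 2.69 ± 0.387 in ND monocyte derived cells. The lowest HFD macrophage library, MHCIIlow replicate 1 at 1.91, stood above the highest ND macrophage library at 1.19. These sums were put together after the single genes were seen and are given with no test. An RNA ratio does not give the ratio of the enzymes or of flux.

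Fewer members passed the test in monocyte derived cells. On HFD 4 members were higher (Tpi1, Pdk1, Slc16a1 and Egln3) and 4 lower (Slc2a3, Hk2, Pfkp and Aldoc), which is 22.9% of the 35, against 17.2% of all genes tested. Among members with a mean of at least 10 CPM the share was 20.7%, the same as the 20.7% of all genes of that level, so the count of members was no higher than the background. The median log2 fold change was 0.19, where that of all genes was -0.05. Hk2 measured 166, 162 and 175 CPM in HFD and 279, 318 and 244 CPM in ND monocyte derived cells (log2 fold change -0.74, SE 0.16, adjusted p = 0.00435), and Slc2a3 (chromosome 6, 122727809 to 122801640) measured 37.3, 16.1 and 22.2 CPM on HFD and 82.1, 41.6 and 74.9 CPM on ND (log2 fold change -1.39, SE 0.32, adjusted p = 0.00888). The groups of neither gene overlapped, although ND replicate 2 of Slc2a3 came close to HFD replicate 1. Pfkp, the platelet phosphofructokinase, measured 493, 326 and 425 CPM on HFD and 613, 629.7 and 563 CPM on ND (log2 fold change -0.54, SE 0.13, adjusted p = 0.00969). Aldoc measured 4.23, 2.26 and 3.42 CPM on HFD and 6.88, 5.99 and 12.7 CPM on ND (log2 fold change -1.35, SE 0.36, adjusted p = 0.0165).

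Pdk1 was higher in monocyte derived cells too, at 9.11, 11.9 and 9.95 CPM on HFD and 7.80, 4.39 and 4.89 CPM on ND (log2 fold change 0.85, SE 0.23, adjusted p = 0.0169), with no overlap. Tpi1 measured 43.3, 46.7 and 47.9 CPM on HFD and 31.5, 41 and 24.9 CPM on ND (log2 fold change 0.50, SE 0.15, adjusted p = 0.0287), and the lactate carrier Slc16a1 measured 26.9, 31 and 29.2 CPM on HFD and 22.6, 22.3 and 15 CPM on ND (log2 fold change 0.53, SE 0.13, adjusted p = 0.00963). The HFD libraries were above the ND libraries for both. Egln3 measured 3.39, 3.05 and 3.12 CPM on HFD and 1.91, 1.26 and 0.172 CPM on ND (log2 fold change 1.46, SE 0.49, adjusted p = 0.0446), all low levels. Of the 5 lower glycolysis genes 0 were called by edgeR or DESeq2, and 2 were higher at an unadjusted p under 0.05. Gapdh measured 327, 333 and 385 CPM on HFD and 282, 389 and 181 CPM on ND (log2 fold change 0.29, SE 0.20, adjusted p = 0.324). Ldha measured 217, 212 and 228 CPM on HFD and 150.4, 210.0 and 94.4 CPM on ND (log2 fold change 0.53, SE 0.20, adjusted p = 0.0702). For Gapdh, ND replicate 2 lay above all HFD libraries and ND replicate 3 below all others, the order of their coding shares (82.5% and 67.1%), and the part of RNA quality in this spread was not tested. Cell make-up varied too. Flt3 averaged 41.8 CPM on HFD and 80.5 CPM on ND, where replicate 2 was lowest at 20.9 CPM. Zbtb46, from the same list of lineage genes, measured 41.3 to 86.8 CPM on HFD and 50.4 to 154.3 CPM on ND. The part of cell make-up in this spread and in the diet differences was not tested either.

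The calls in monocyte derived cells rested on few libraries. Without ND replicate 2, 18 members were higher and 4 lower, and without ND replicate 3, 1 was higher and 3 lower. The share of all genes called is not given for the fits of this paragraph, so their counts only describe the members. Without HFD replicate 2 there were 3 higher and 2 lower, and without HFD replicate 3 there were 2 and 3. A fit to the 6 monocyte derived libraries alone, with their own spread, called 0 members, with 5 higher and 5 lower at an unadjusted p under 0.05. With all HFD libraries numbered 2 left out, 1 was higher and 1 lower, and Slc2a3, Pfkp, Aldoc, Tpi1, Pdk1 and Egln3 were lost. Receptor gene reads averaged 127 CPM in HFD and 755.7 CPM in ND monocyte derived cells. Fibroblast markers summed to 606.2 to 1707 CPM in HFD and 266.1 to 445.3 CPM in ND monocyte derived cells, with 4 of 10 called higher, and the part of either in these differences was not tested. Of these markers Dpp4 and Pi16 had lower means on HFD, at 55.9 and 3.31 CPM, than on ND, at 88.8 and 6.58 CPM.

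**Figure D4:**
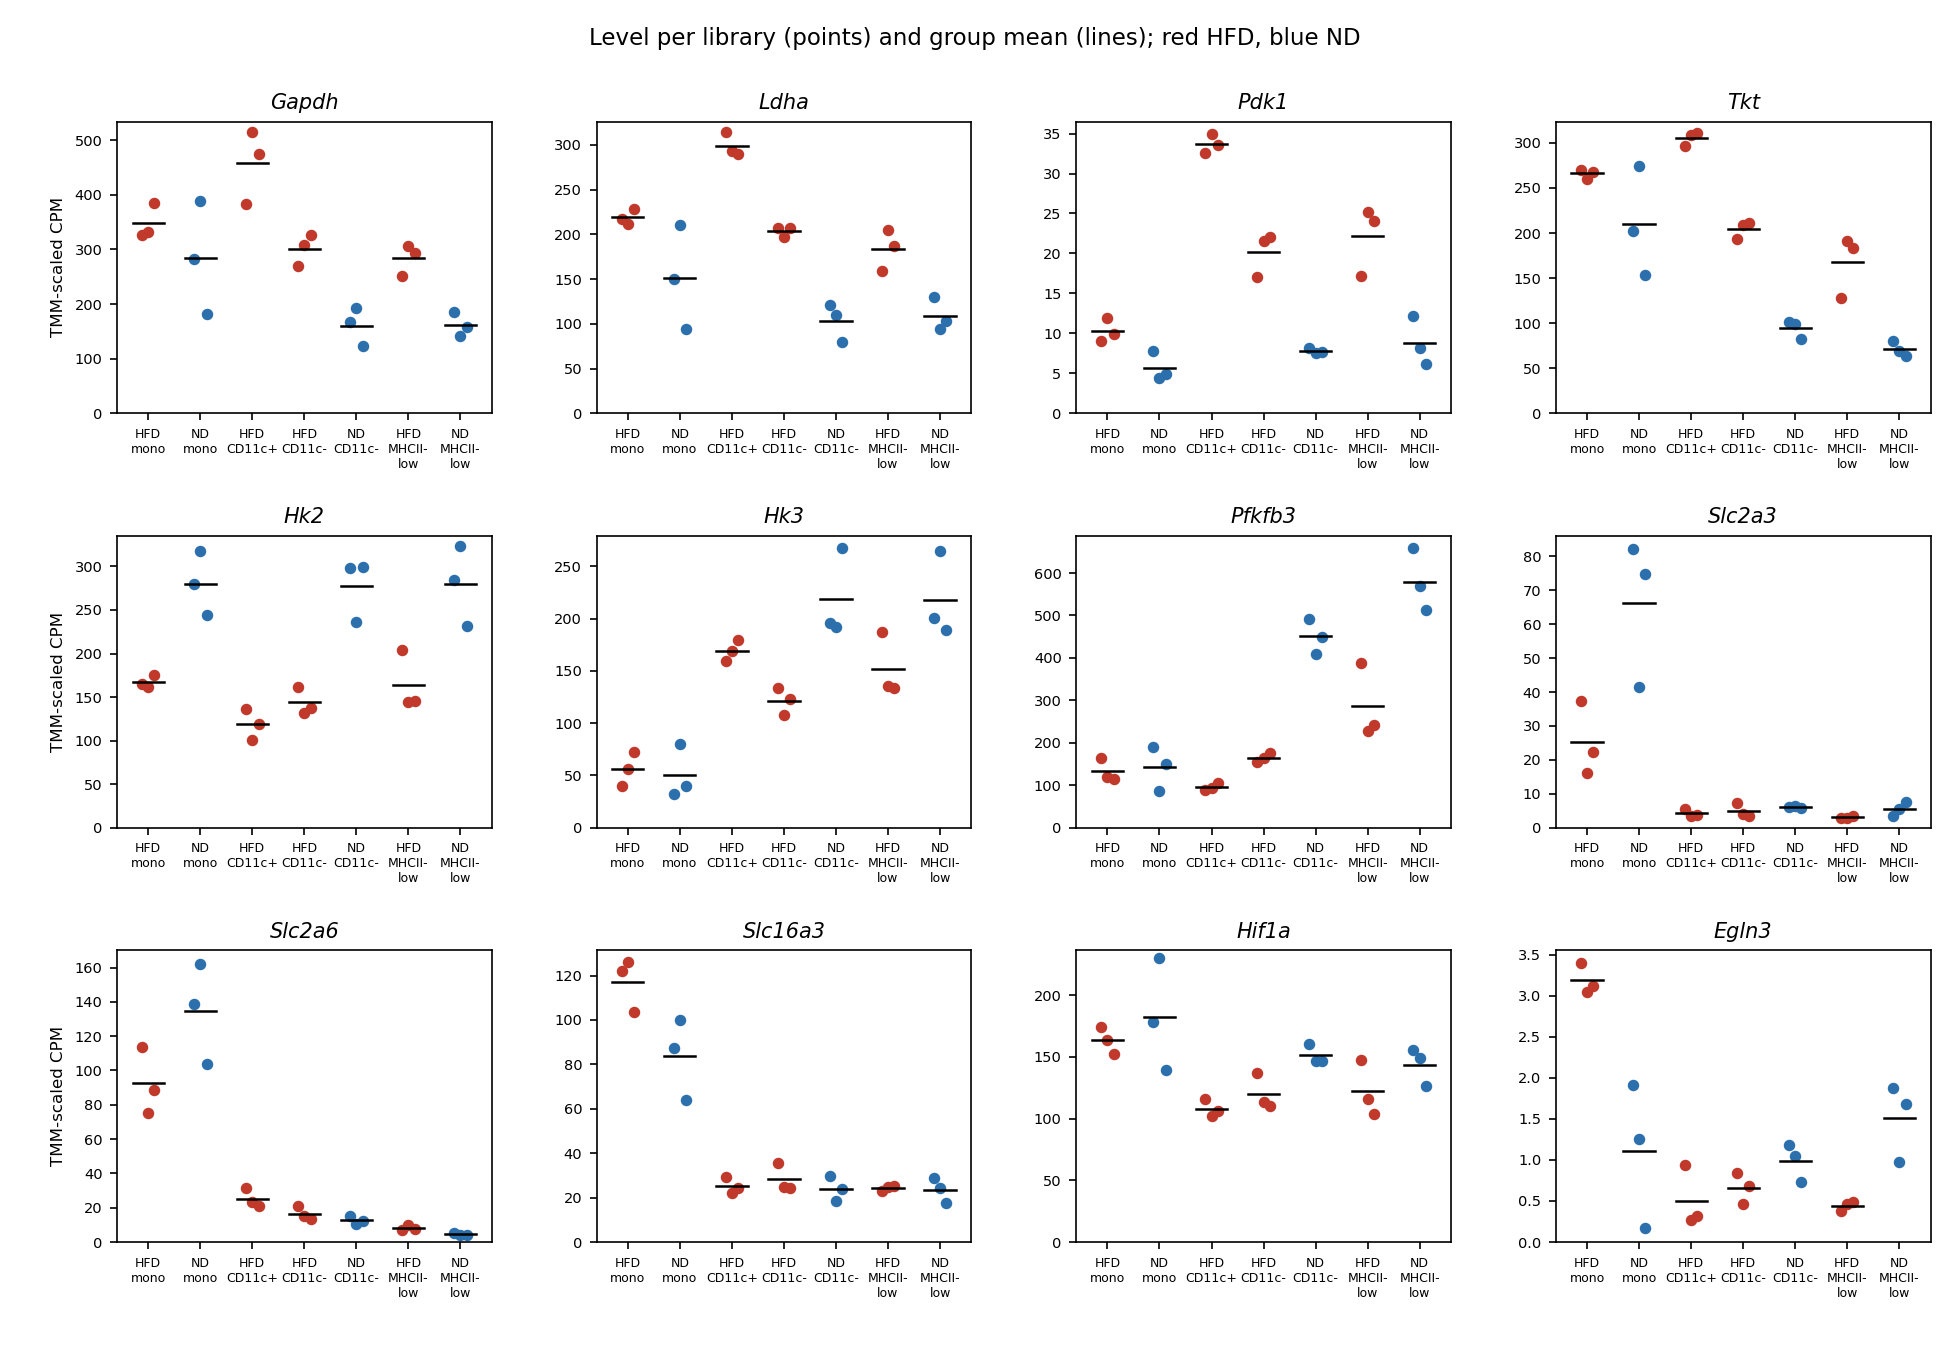
CPM of 12 members in each library of the 7 groups, with a point for each library, a line for the group mean, red for HFD and blue for ND. Gapdh, Ldha, Pdk1 and Tkt are highest in CD11c+ macrophages, Hk2 and Pfkfb3 are higher in ND than in HFD macrophages, and Slc2a3, Slc2a6 and Slc16a3 are highest in monocyte derived cells.

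The diet effect itself differed between monocyte derived cells and the macrophages for 9 members (25.7%), against 9.39% of all genes tested. Among members with a mean of at least 10 CPM it was called for 7 of 29 (24.1%), against 16.3% of genes of that level. The difference, taken as the effect in monocyte derived cells minus the mean effect in MHCIIlow and CD11c- macrophages, was positive for 4. Pfkfb3 and Hk1, which fell in the macrophages, differed by 1.14 (SE 0.27, adjusted p = 0.0128) and 0.85 (SE 0.22, adjusted p = 0.0174), and their own log2 fold changes in monocyte derived cells were -0.10 and 0.12. Egln3 differed by 2.63 (SE 0.61, adjusted p = 0.00955) and Slc16a1 by 0.63 (SE 0.16, adjusted p = 0.0138). It was negative for Pgls, Tkt and Taldo1, at -1.01 (SE 0.17, adjusted p = 0.000931), -0.84 (SE 0.20, adjusted p = 0.0114) and -0.87 (SE 0.21, adjusted p = 0.0134), whose own changes in monocyte derived cells were 0.12, 0.34 and 0.31 and were not called. Slc2a6 differed by -1.18 (SE 0.26, adjusted p = 0.00682) and Aldoc by -1.62 (SE 0.48, adjusted p = 0.0354). Hk2 fell in all 3 populations, and its difference of 0.12 was not called. Tkt and Taldo1 lost the call without HFD MHCIIlow replicate 2 or 3 or HFD monocyte derived replicate 2, Taldo1 also without HFD monocyte derived replicate 1, and Hk1 without HFD monocyte derived replicate 3 or ND monocyte derived replicate 1. Aldoc lost it in most fits that left out a library.

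Over the 7 groups, HFD and ND, CD11c+ macrophages held the highest mean level of 19 of the 35 members. The matching share of all genes is not given, so this number only describes the members. Within the HFD mice, 3 members rose and 0 fell in CD11c+ against CD11c- macrophages (8.57%), against 3.49% of all genes tested. Of all genes tested 317 were higher and 484 lower with TMM but 437 and 443 with the size factors of DESeq2. Pgk1 measured 94.6, 109 and 100.4 CPM in CD11c+ and 68.1, 66.2 and 65.2 CPM in HFD CD11c- macrophages (log2 fold change 0.61, SE 0.14, adjusted p = 0.0218). Tpi1 measured 74.2, 78.6 and 73.7 CPM in CD11c+ and 46.4, 53.1 and 52.1 CPM in HFD CD11c- macrophages (log2 fold change 0.58, SE 0.15, adjusted p = 0.0321). Pkm measured 682, 763 and 793 CPM in CD11c+ and 489, 496 and 514 CPM in HFD CD11c- macrophages (log2 fold change 0.58, SE 0.16, adjusted p = 0.0496). No library of the CD11c+ group overlapped the CD11c- group for these 3 genes. Tpi1 and Pkm lost the call whichever of the 6 libraries was left out, and Pgk1 lost it in each such fit but that without CD11c+ replicate 1.

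HFD libraries of equal number deviated together from their group means, with correlations of 0.638 to 0.771 between CD11c+ and CD11c- libraries, so a fit with the number as a block is given beside this result. With that block 12 members were higher (Slc2a1, Slc2a6, Aldoa, Tpi1, Gapdh, Pgk1, Eno1, Pkm, Ldha, Pdk1, G6pdx and Tkt) and Pfkfb3 was lower. DESeq2 without a block also called 12 higher and 1 lower, and at an unadjusted p under 0.05 the main test had 17 higher and 1 lower. Ldha measured 314, 293 and 289 CPM in CD11c+ and 207, 197 and 207 CPM in HFD CD11c- macrophages (log2 fold change 0.55). Tkt measured 297, 309 and 311 CPM in CD11c+ and 194, 209 and 211 CPM in HFD CD11c- macrophages (0.58), and Pdk1 measured 32.5, 35 and 33.5 CPM in CD11c+ and 17, 21.6 and 22 CPM in HFD CD11c- macrophages (0.74). Pfkfb3 measured 88.6, 93.8 and 105 CPM in CD11c+ and 155, 164 and 177 CPM in HFD CD11c- macrophages (log2 fold change -0.78), the lowest mean level of this gene in any group. None of these groups overlapped. Summed lipid-associated macrophage genes were 6929 to 9036 CPM in CD11c+ and 2613 to 4204 CPM in HFD CD11c- macrophages (3 of 6 called higher), summed cell cycle genes were 810.2 to 956.4 CPM in CD11c+ and 582.3 to 719.9 CPM in HFD CD11c- macrophages (7 of 12 called higher), and their part in the differences was not tested. With the HFD libraries numbered 2 left out, edgeR called 0 members, with 10 higher and 1 lower at an unadjusted p under 0.05.

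Between CD11c- and MHCIIlow macrophages few members were called, as were few of all genes tested. On HFD 1 of 35 rose and 0 fell (2.86%), against 3.05% of all genes tested, and on ND also 1 rose and 0 fell, against 1.3% of all genes tested. The gene was Slc2a6 on both diets. It measured 21.1, 15.1 and 13.1 CPM in CD11c- and 7.25, 9.78 and 7.58 CPM in MHCIIlow macrophages on HFD (log2 fold change 1.00, SE 0.22, adjusted p = 0.0104), and 15.2, 10.7 and 12.2 CPM in CD11c- and 5.25, 3.98 and 4.06 CPM in MHCIIlow macrophages on ND (log2 fold change 1.52, SE 0.23, adjusted p = 0.000672). The groups did not overlap on either diet. The HFD call was lost without CD11c- replicate 1 or MHCIIlow replicate 1 or 3. With the replicate number as a block, which the HFD libraries allow (correlations of 0.327 to 0.679), Slc2a1 was higher as well and Pfkfb3 lower, at 155, 164 and 177 CPM in HFD CD11c- and 388, 228 and 241 CPM in HFD MHCIIlow macrophages. By DESeq2 there were 2 higher and 1 lower on HFD and 2 higher and 0 lower on ND, and at an unadjusted p under 0.05 there were 3 higher and 2 lower on HFD and 4 higher and 1 lower on ND.

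Monocyte derived cells held more RNA of other members of the same families. On HFD, against CD11c+ macrophages, 9 members rose and 10 fell (54.3%), against 38.7% of all genes tested, and among members of at least 10 CPM the share was 48.3%, against 51.9% of genes of that level, so the count itself was near the background. Slc2a3 measured 37.3, 16.1 and 22.2 CPM in HFD monocyte derived cells and 5.39, 3.38 and 3.77 CPM in CD11c+ macrophages (log2 fold change 2.59, SE 0.35, adjusted p = 1.25e-05). Slc2a6 measured 114, 75.3 and 88.7 CPM in HFD monocyte derived cells and 31.5, 23.4 and 21.1 CPM in CD11c+ macrophages (log2 fold change 1.87, SE 0.21, adjusted p = 1.24e-06). The lactate exporter Slc16a3 (chromosome 11, 120948480 to 120960868) measured 122, 126 and 104 CPM in HFD monocyte derived cells and 29.1, 21.9 and 24.2 CPM in CD11c+ macrophages (log2 fold change 2.22, SE 0.20, adjusted p = 1.32e-07). No groups overlapped. Pfkp measured 493, 326 and 425 CPM in HFD monocyte derived cells and 248, 215 and 229 CPM in CD11c+ macrophages (log2 fold change 0.85, SE 0.13, adjusted p = 3.44e-05). Hif1a measured 174, 164 and 153 CPM in HFD monocyte derived cells and 116, 102 and 106 CPM in CD11c+ macrophages (log2 fold change 0.60, SE 0.15, adjusted p = 0.00376). Hk2 and Egln3 were higher by 0.50 ± 0.16 and 2.64 ± 0.51 on the log2 scale (± SE).

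The members that fell against CD11c+ macrophages were led by Pdk1 and Hk3. Pdk1 measured 9.11, 11.9 and 9.95 CPM in HFD monocyte derived cells and 32.5, 35 and 33.5 CPM in CD11c+ macrophages (log2 fold change -1.71, SE 0.22, adjusted p = 4.24e-06), and Hk3 (chromosome 13, 55005985 to 55021385) measured 39.4, 56.4 and 72.6 CPM in HFD monocyte derived cells and 159, 169 and 179 CPM in CD11c+ macrophages (log2 fold change -1.59, SE 0.27, adjusted p = 0.000165). Aldoa measured 180.3, 199 and 209 CPM in HFD monocyte derived cells and 310.0, 427 and 421 CPM in CD11c+ macrophages (log2 fold change -0.98, SE 0.24, adjusted p = 0.00356). Tpi1 measured 43.3, 46.7 and 47.9 CPM in HFD monocyte derived cells and 74.2, 78.6 and 73.7 CPM in CD11c+ macrophages (log2 fold change -0.72, SE 0.15, adjusted p = 0.000697). Ldhb, at 0.991, 0.739 and 0.801 CPM in HFD monocyte derived cells and 2.69, 1.64 and 2.13 CPM in CD11c+ macrophages, was lower at a level near the bottom of the range (log2 fold change -1.34, SE 0.33, adjusted p = 0.00309). Of the 5 lower glycolysis genes 0 were called by edgeR or DESeq2, with 1 lower at an unadjusted p under 0.05. With the replicate number as a block (correlations of 0.383 to 0.486) 9 members were higher and 13 lower, Gapdh, Pgam1 and Ldha being added to those that fell. With HFD libraries numbered 2 left out Hif1a lost its call, and Hk2, Pfkl, Pfkfb4, G6pdx and Bnip3 lost theirs in some fits that left out a library.

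On ND, against CD11c- macrophages, 18 members rose and 7 fell in monocyte derived cells (71.4%), against 43.7% of all genes tested. Of the 29 members that average 10 CPM or more 55.2% were higher and 17.2% lower, against 23.4% and 34.5% of genes of that level. Slc2a6 measured 139, 162 and 104 CPM in ND monocyte derived cells and 15.2, 10.7 and 12.2 CPM in ND CD11c- macrophages (log2 fold change 3.41, SE 0.23, adjusted p = 4.62e-10). Slc2a3 measured 82.1, 41.6 and 74.9 CPM in ND monocyte derived cells and 6.17, 6.33 and 5.86 CPM in ND CD11c- macrophages (log2 fold change 3.43, SE 0.35, adjusted p = 2.9e-07). Slc16a3 measured 87.3, 99.8 and 64 CPM in ND monocyte derived cells and 29.6, 18.6 and 24.1 CPM in ND CD11c- macrophages (log2 fold change 1.80, SE 0.20, adjusted p = 4.14e-07). Pfkp measured 613, 629.7 and 563 CPM in ND monocyte derived cells and 236, 258 and 273 CPM in ND CD11c- macrophages (log2 fold change 1.24, SE 0.13, adjusted p = 1.89e-07). The monocyte derived libraries stood above every CD11c- library for all 4. Hk3 measured 32.2, 80 and 39.4 CPM in ND monocyte derived cells and 196, 192 and 267 CPM in ND CD11c- macrophages (log2 fold change -2.11, SE 0.28, adjusted p = 7.05e-06). Pfkfb3 measured 191, 87.3 and 149.7 CPM in ND monocyte derived cells and 492, 409.5 and 450.1 CPM in ND CD11c- macrophages (log2 fold change -1.66, SE 0.23, adjusted p = 7.94e-06). Hk1 measured 46, 91.3 and 57.6 CPM in ND monocyte derived cells and 129, 149.9 and 137 CPM in ND CD11c- macrophages (log2 fold change -1.09, SE 0.18, adjusted p = 5.89e-05). Hk2, in contrast, measured 279, 318 and 244 CPM in ND monocyte derived cells and 298, 237 and 299.6 CPM in ND CD11c- macrophages and was not called (log2 fold change 0.01).

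All 5 lower glycolysis genes were called higher in ND monocyte derived cells, with log2 fold changes from 0.55 for Pgam1 to 1.15 for Eno1. Their replicates spread widely: Eno1 measured 184, 296 and 143 CPM in ND monocyte derived cells and 114, 92.3 and 75.2 CPM in ND CD11c- macrophages, and the Gapdh values given above overlapped between the groups. In a fit to these 6 libraries alone 11 members were higher, and Gapdh, Tpi1, Pgam1, Pkm, Ldha, Slc16a1, G6pdx, Rpia and Bnip3 lost their calls. Tpi1, Pgam1, Ldha, G6pdx and Bnip3 lost theirs without ND monocyte derived replicate 2, and also without ND CD11c- replicate 3. Ldha and Bnip3 lost theirs without ND monocyte derived replicate 1 as well, and Bnip3 whichever ND CD11c- library was left out. Receptor gene reads averaged 755.7 CPM in ND monocyte derived cells and 116.2 CPM in ND CD11c- macrophages, and the mean coding share was 74.45% in ND monocyte derived cells and 79.45% in ND CD11c- macrophages. The part of either in these differences was not tested.

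**Figure D5:**
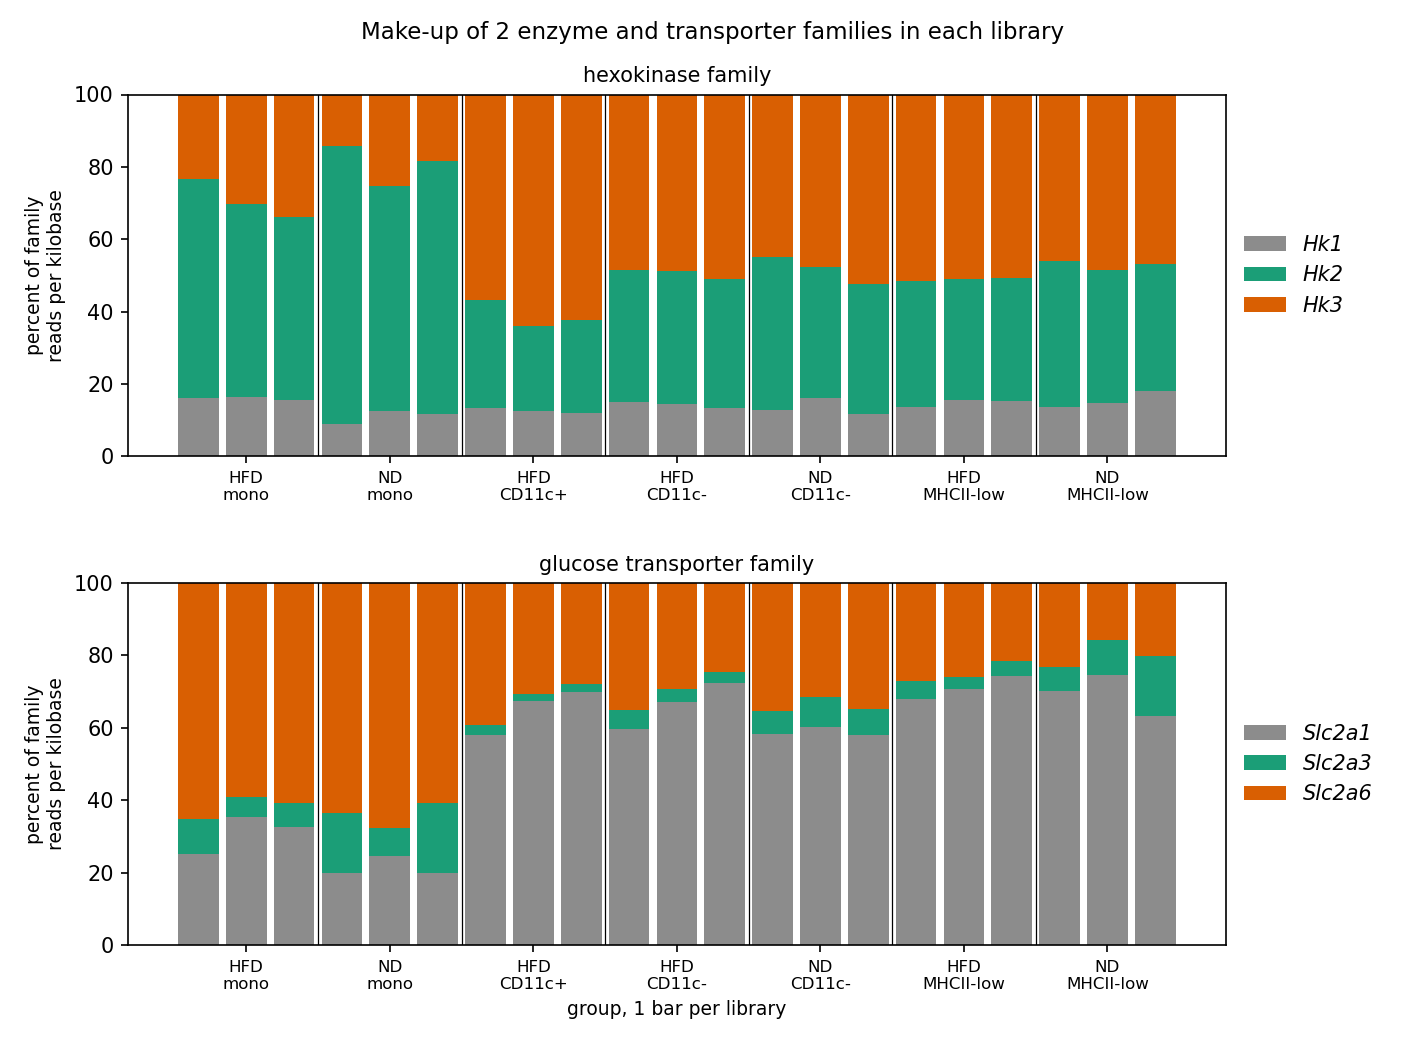
Share of each member in its family's counts per kilobase of exon, in percent, with a stacked bar for each library, for the hexokinase genes Hk1, Hk2 and Hk3 (upper panel) and the glucose transporter genes Slc2a1, Slc2a3 and Slc2a6 (lower panel). Hk3 is the largest part in every macrophage library, Hk2 in monocyte derived cells, and Slc2a6 takes the place of Slc2a1 as the largest transporter share in monocyte derived cells.

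Per kilobase of exon, the make-up of the families can be compared within a library. Hk2 held 54.8 ± 5.2% of hexokinase counts per kilobase in HFD and 69.7 ± 7.3% in ND monocyte derived cells, 26.3 ± 3.2% in CD11c+ macrophages, and mean shares of 36.2% in HFD and 38.2% in ND CD11c- and 34.1% in HFD and 37.4% in ND MHCIIlow macrophages (SD, n = 3). Hk3 held 29.1 ± 5.4% in HFD and 19.4 ± 5.6% in ND monocyte derived cells and 60.9 ± 3.8% in CD11c+ macrophages. In the other macrophages its mean shares were 49.5% in HFD and 48.3% in ND CD11c- and 51.1% in HFD and 47.1% in ND MHCIIlow macrophages, so the mean shares of Hk2 and Hk3 differed by less than 5 points between the diets there. Slc2a1 held 31 ± 5.2% of transporter counts per kilobase in HFD and 21.4 ± 2.7% in ND monocyte derived cells, against mean shares of 65% in CD11c+, 66.4% in HFD CD11c-, 58.8% in ND CD11c-, 71% in HFD MHCIIlow and 69.3% in ND MHCIIlow macrophages. Slc16a3 held 77% in HFD and 77.7% in ND monocyte derived cells of the counts per kilobase it shares with Slc16a1, against 39.4% to 46.6% in the macrophage groups. Pfkp led the phosphofructokinase genes in every group, with 68.3% in ND MHCIIlow macrophages at the low end and 90.2% in ND monocyte derived cells at the high end. Lengths are those of all exons joined, and these shares are given with no test.

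Other genes of the same pathways were counted from lists chosen beside the module. Of 24 tested further glycolysis and glucose uptake genes 4 rose and 1 fell on HFD in MHCIIlow macrophages, 4 rose and 2 fell in CD11c- macrophages, and 0 rose and 2 fell in monocyte derived cells. Eno2, the neuronal enolase, had 28.3, 40.2 and 30.7 CPM in HFD and 7.32, 7.76 and 10.5 CPM in ND CD11c- macrophages (log2 fold change 1.96, SE 0.36, adjusted p = 0.000563) and 9.18, 17.7 and 21 CPM in HFD and 4.25, 3.74 and 3.45 CPM in ND MHCIIlow macrophages (log2 fold change 2.06, SE 0.38, adjusted p = 0.000702). Of 14 genes of mitochondrial pyruvate entry 6 rose and 1 fell in MHCIIlow, 5 rose and 1 fell in CD11c- macrophages, and 2 rose and 0 fell in monocyte derived cells. Pdk4, a paralog of Pdk1 that fatty acids are known to induce, rose in MHCIIlow macrophages (log2 fold change 1.37, SE 0.44, adjusted p = 0.0266) and in monocyte derived cells (log2 fold change 2.59, SE 0.51, adjusted p = 0.00383). Of 13 tested gluconeogenesis and glycogen genes 6 rose and 3 fell in MHCIIlow, 5 rose and 2 fell in CD11c-, and 1 rose and 1 fell in monocyte derived cells. Gyg, the primer of glycogen synthesis, had 37.1, 45.6 and 43.8 CPM in HFD and 16.1, 14 and 13.2 CPM in ND MHCIIlow macrophages (log2 fold change 1.54, SE 0.19, adjusted p = 8.36e-06), and the muscle glycogen phosphorylase gene Pygm gave -1.22 (SE 0.29, adjusted p = 0.00426) there.

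Of 15 other pentose phosphate and NADPH genes 5 rose and 1 fell on HFD in MHCIIlow, 3 rose and 1 fell in CD11c-, and 3 rose and 0 fell in monocyte derived cells, among them the NADPH-forming isocitrate dehydrogenase Idh1 in MHCIIlow macrophages (log2 fold change 0.81, SE 0.17, adjusted p = 0.00194). Of 30 other genes of the HIF pathway 8 rose and 1 fell in MHCIIlow, 10 rose and 2 fell in CD11c-, and 8 rose and 3 fell in monocyte derived cells. The shares of called genes in these lists have to be read against the 30.7%, 32.4% and 17.2% of all genes. Angptl4, an inhibitor of lipoprotein lipase that PPAR factors also induce, had 41.2, 79 and 72 CPM in HFD and 11.6, 18.1 and 9.98 CPM in ND CD11c- macrophages (log2 fold change 2.28, SE 0.35, adjusted p = 0.000158). It also rose in MHCIIlow macrophages (2.08 on the log2 scale) and in monocyte derived cells (2.80).

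Between macrophage populations few genes of any kind were called. The share of all genes tested was 3.49% for CD11c+ against CD11c- macrophages on HFD. For CD11c- against MHCIIlow macrophages it was 3.05% on HFD and 1.3% on ND. The list genes named for these comparisons are therefore single examples and give no result about the lists. In CD11c+ against HFD CD11c- macrophages the glycogen gene Gyg (log2 fold change 0.83, SE 0.18, adjusted p = 0.0155) and the HIF pathway genes Bhlhe40 and Bnip3l rose, the mitophagy receptor Bnip3l with 102, 105 and 108 CPM in CD11c+ and 59.3, 64.2 and 67 CPM in HFD CD11c- macrophages (log2 fold change 0.72, SE 0.12, adjusted p = 0.00239). In CD11c- against MHCIIlow macrophages Ndrg1, a stress gene induced by hypoxia, rose on HFD with 136, 119.6 and 113 CPM in CD11c- and 58.5, 69.5 and 80 CPM in MHCIIlow macrophages (log2 fold change 0.83, SE 0.12, adjusted p = 0.000307), and on ND by 0.56 (SE 0.12, adjusted p = 0.0176). In monocyte derived cells against CD11c+ macrophages on HFD, 2 further glycolysis genes rose and 10 fell, 0 pyruvate entry genes rose and 6 fell, 1 glycogen gene rose and 5 fell, 3 NADPH genes rose and 7 fell, and 8 HIF pathway genes rose and 6 fell, to be read against the 38.7% of all genes called there. The pyruvate carrier gene Slc16a7 had 23.8, 31.4 and 32 CPM in HFD monocyte derived cells and 62.5, 72.8 and 76.6 CPM in CD11c+ macrophages (log2 fold change -1.28, SE 0.16, adjusted p = 2.44e-06), and the HIF target Bhlhe40, a transcriptional repressor, had 645, 469 and 589.7 CPM in HFD monocyte derived cells and 253, 172 and 217 CPM in CD11c+ macrophages (log2 fold change 1.41, SE 0.19, adjusted p = 8.87e-06). On ND, against CD11c- macrophages, 3 further glycolysis genes rose and 8 fell, 4 pyruvate entry genes rose and 5 fell, 4 glycogen genes rose and 4 fell, 4 NADPH genes rose and 5 fell, and 11 HIF pathway genes rose and 7 fell, where 43.7% of all genes were called. Mthfd2, a folate enzyme of mitochondria, gave 2.34 (SE 0.23, adjusted p = 8.26e-08).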

How the data were processed

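The deposited table holds whole-number counts of reads per gene for the 21 libraries. Per the submitters' processing notes the authors worked on GRCm38 with Subread 1.4.6-p5 (featureCounts), STAR 2.6.0a, Trim Galore 0.4.5 and bcl2fastq, and per the labels' protocols RNA came from a PicoPure kit and libraries from a NuGen Ovation kit. The strand setting and the treatment of reads with several matches are not given in the sources used here. Gene IDs were matched to GENCODE M21, 53315 of 54532 with their version and 54495 without it.

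From the counts, genes were filtered with filterByExpr (22935 left) and scaled by TMM in edgeR 4.0.16 under R 4.3.3. The quasi-likelihood model (robust) had a mean for each of the 7 groups and used all 21 libraries, which left 14 residual degrees of freedom, and its common dispersion was 0.0502. Tests were 2-sided, adjusted by Benjamini-Hochberg over all tested genes, and called at an adjusted p under 0.05. SE is the log2 fold change divided by the square root of its F statistic. The script was tested on simulated counts. Alternatives were DESeq2 1.42.0, its size factors in edgeR, no filter, only the libraries compared, a replicate block, each library left out in turn, and, added after seeing the data, all HFD libraries numbered 2 left out. Tables and figures used Python 3.11.15, pandas 2.3.3 and matplotlib 3.10.9.

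The module and the other lists were chosen with earlier results of these data known. Library values are given for up to 4 called members in each direction with the largest change, given a mean of 10 CPM or more in the group where they are higher, and for 12 fixed members, and up to 2 genes each way from other lists. Some values of members outside that rule are added and were chosen after they were seen.

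Whether replicate numbers pair libraries was checked from deviations about the group means. In HFD libraries 17 of 18 pairs of equal number had a correlation above 0.1 (0.083 to 0.771). These included every pair of the 3 HFD comparisons. Among ND libraries 4 of 9 pairs did by title number (-0.31 to 0.546). By description number 5 of 7 ND pairs did (0.053 to 0.546), against 2 of 20 ND pairs of unequal number. Blocked counts therefore stand beside the HFD population comparisons, and those of the ND comparisons are given with the dependence on processing.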

Additional observations from a re-analysis of the deposited data

Results flagged for a closer look

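For 9 members the diet effect in monocyte derived cells differed from the mean diet effect in MHCIIlow and CD11c- macrophages by the interaction test of edgeR, adjusted over all genes. On the log2 scale the difference was 2.63 for Egln3, 1.14 for Pfkfb3, 0.85 for Hk1 and 0.63 for Slc16a1, which were relatively higher on HFD in monocyte derived cells. It was -1.62 for Aldoc, -1.18 for Slc2a6, -1.01 for Pgls, -0.87 for Taldo1 and -0.84 for Tkt, which were relatively lower. Egln3 and Aldoc are low genes: Egln3 measured at most 3.39 CPM, in HFD monocyte derived replicate 1, and Aldoc at most 12.7 CPM, in ND monocyte derived replicate 3.

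For Slc2a6 each of the 3 HFD monocyte derived libraries but replicate 1 lay below every ND monocyte derived library, with 114, 75.3 and 88.7 CPM on HFD and 139, 162 and 104 CPM on ND, while its HFD values were the higher ones in MHCIIlow macrophages. The ND monocyte derived libraries enter all 9 differences, and their coding shares (67.1% to 82.5%) spread more than those of any other group. The part of that spread in the differences was not tested.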

How the results depend on the processing

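No called member changed direction under any alternative run. The share of all genes called is not given in this section, so its counts only describe the members. Counts of called members out of 35 that moved by over 1.5 times were as follows. For CD11c+ against CD11c- macrophages on HFD, 12 were higher by DESeq2, 5 with its size factors, 16 in the compared libraries only, 11 with no filter and 0 without the HFD libraries numbered 2, and 1 was lower by DESeq2, in the compared libraries only and with no filter, against 3 and 0. For CD11c- against MHCIIlow macrophages on HFD, 2 were higher by DESeq2 and in the compared libraries only and 3 with no filter, and 1 was lower by DESeq2 and with no filter. On ND, 2 were higher by DESeq2 and 3 in the compared libraries only. For diet in MHCIIlow macrophages 8 were higher and 2 lower without the HFD libraries numbered 2. For diet in monocyte derived cells those counts were 1 and 1, with 0 and 0 in the compared libraries only and 11 higher with no filter. For monocyte derived cells in the compared libraries only, 16 were lower than in CD11c+ macrophages on HFD and 11 were higher than in CD11c- macrophages on ND. Differences of the diet effect between monocyte derived cells and macrophages had 8 lower by DESeq2.

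With the replicate number as a block, on the title or the description number, CD11c+ against CD11c- macrophages gave 12 or 14 higher and 1 lower. CD11c- against MHCIIlow macrophages gave 2 higher and 1 lower on HFD under either block, and 2 or 3 higher on ND, and the differences of the diet effect gave 9 lower under either. With a block on the title number diet gave 15 higher and 5 lower in MHCIIlow macrophages, 15 and 5 in CD11c- macrophages, and 5 and 5 in monocyte derived cells. Monocyte derived cells against CD11c- macrophages on ND gave 18 higher and 8 lower under either block. The labels do not tell if lean libraries of equal number came from the same mice.

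Leaving out each library in turn gave 0 to 1 higher for CD11c+ against CD11c- macrophages, 0 to 1 higher and 0 to 1 lower for CD11c- against MHCIIlow macrophages on HFD, 10 to 15 higher for diet in MHCIIlow macrophages, 1 to 18 higher and 2 to 4 lower for diet in monocyte derived cells, and 2 to 10 lower for the differences of the diet effect. With the longest transcript as length, the Hk2 share was 47.6% in HFD monocyte derived, 23% in CD11c+, 31.5% in HFD and 33.5% in ND CD11c-, and 29.5% in HFD and 32.4% in ND MHCIIlow libraries. That of Hk3 was 56.4% in CD11c+, 45.5% in HFD CD11c-, and 46.8% in HFD and 43% in ND MHCIIlow libraries. That of Slc16a3 was 80.4% in HFD and 81.1% in ND monocyte derived, 46.7% in CD11c+, 51.7% in HFD CD11c-, and 46.8% in HFD and 44.3% in ND MHCIIlow libraries. Pfkp had 89.4% in ND monocyte derived and Slc2a1 56.5% in ND CD11c- libraries. The causes of these changes were not tested beyond the smaller number of libraries in the fits named. Depth limits Egln3, Aldoc, Ldhb and Pfkm most.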

Other observations

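Some members varied little across the macrophages. Slc16a1 measured 24.7 to 30.5 CPM in the 9 HFD and 28.2 to 32 CPM in the 6 ND macrophage libraries, and Pfkfb4 34.7 to 45.6 CPM in the HFD and 32.2 to 39.4 CPM in the ND libraries. Pfkl, which was not called for diet, varied more, with 19.7 to 27.2 CPM in the HFD and 24.1 to 34.8 CPM in the ND libraries. Its mean in each HFD macrophage group was below that in each ND macrophage group. Pfkm, the muscle phosphofructokinase, was lower in monocyte derived cells than in macrophages on both diets, with 2.21, 2.49 and 2.36 CPM in HFD monocyte derived cells and 4.82, 5.09 and 5.69 CPM in CD11c+ macrophages (log2 fold change -1.14, SE 0.27, adjusted p = 0.00219), and 1.10, 3.33 and 3.00 CPM in ND monocyte derived cells and 5.81, 6.76 and 6.54 CPM in ND CD11c- macrophages (log2 fold change -1.37, SE 0.28, adjusted p = 0.00051). Its levels are low in all of them.

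Vegfa, the angiogenic growth factor and a HIF target, measured 147, 142 and 187 CPM in HFD and 84, 44.5 and 50.1 CPM in ND CD11c- macrophages and 57.7, 85 and 116 CPM in HFD and 57.6, 38.5 and 27.1 CPM in ND MHCIIlow macrophages, and 202, 198 and 277 CPM in CD11c+ macrophages. It was chosen after its values were seen. In MHCIIlow macrophages its HFD and ND libraries touched, HFD replicate 1 and ND replicate 1 being nearly equal.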
